A study of Mus musculus with 14 samples.

Results

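Citraconate was compared with its vehicle, DMSO, in a pair of library groups from mouse neural stem cells (mNSC): 2 libraries titled Citraconate 50K and 2 titled DMSO 50K. They were chosen by their titles and the library number that these titles share, and are 4 of the 14 ATAC-seq libraries of a study of the ZFTA-RELA fusion, itaconate and chromatin. Each library was made from 50000 cells. The other libraries carry an earlier number range and are called the first series here: empty vector cells (EV), fusion cells (ZR), and fusion cells titled with DMSO (ZR_DMSO), with dmCitra (ZR_dmCitra) or with the EZH2 inhibitor GSK343, with 2 libraries of each.

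The cell line labels differ between the groups compared. Both citraconate libraries are labelled ZFTA-RELA mNSC with 10 mM citraconate. Both DMSO libraries are labelled Empty Vector mNSC with DMSO as vehicle, whereas the treatment protocol speaks of fusion cells given either agent. The protocol names 24 h and 48 h for citraconate and does not assign either time to a library. All cells grew with EGF and basic FGF. Nothing in the labels ties replicates to separate cultures, and replicate spread here may be only technical. If the cell line labels hold, fusion and citraconate cannot be told apart in this comparison. Regions that separate fusion cells from empty vector cells in the first series were therefore looked up before the comparison was read.

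ZFTA-RELA joins a zinc finger protein to RELA, the transactivating NF-kB subunit, and drives a class of childhood ependymoma. ACOD1 (aconitate decarboxylase, also known as IRG1) makes itaconate from the citric acid cycle intermediate cis-aconitate, and is best known from activated macrophages. Citraconate is an isomer of itaconate that inhibits ACOD1, and both compounds are known to act on the KEAP1-NRF2 antioxidant pathway. In ATAC-seq the Tn5 transposase cuts accessible DNA, so that peaks mark promoters and distal elements such as enhancers.

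Among genes of the pathway lists, the best-ranked peak missing from both citraconate libraries was that at the start of Acod1 itself. The promoters below are shown because they belong to named genes of the comparison. The first 3 lie under peaks found in both DMSO libraries and in neither citraconate library. They belong to Acod1 (chr14:103046762-103047011, plus strand), to Cntn6, a neural adhesion molecule of the contactin family (chr6:104492794-104493043, plus strand), and to Mobp, a myelin protein gene (chr9:120149492-120149741, plus strand). The 4th belongs to Ring1, a Polycomb E3 ligase subunit (chr17:34024681-34024930, minus strand), whose peak was ranked higher in both citraconate libraries. Each is the stretch of 250 bases before the annotated start, from RefSeq on GRCm38.p6, written 5′ to 3′, with matches to the searched motifs in capitals.
Acod1: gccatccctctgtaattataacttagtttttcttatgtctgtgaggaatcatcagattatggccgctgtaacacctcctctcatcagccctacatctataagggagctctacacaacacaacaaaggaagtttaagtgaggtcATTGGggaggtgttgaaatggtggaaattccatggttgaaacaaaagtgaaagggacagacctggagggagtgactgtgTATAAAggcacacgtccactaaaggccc
Cntn6: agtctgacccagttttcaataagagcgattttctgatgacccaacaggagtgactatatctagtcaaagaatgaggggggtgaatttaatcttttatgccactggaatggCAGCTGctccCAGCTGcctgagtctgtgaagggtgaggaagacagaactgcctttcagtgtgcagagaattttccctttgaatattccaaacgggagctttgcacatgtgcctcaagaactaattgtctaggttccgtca
Mobp: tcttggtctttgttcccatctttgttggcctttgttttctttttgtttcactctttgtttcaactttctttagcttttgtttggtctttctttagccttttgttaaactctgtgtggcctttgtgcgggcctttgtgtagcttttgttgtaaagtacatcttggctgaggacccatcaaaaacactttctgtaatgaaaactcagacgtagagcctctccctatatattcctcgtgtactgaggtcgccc
Ring1: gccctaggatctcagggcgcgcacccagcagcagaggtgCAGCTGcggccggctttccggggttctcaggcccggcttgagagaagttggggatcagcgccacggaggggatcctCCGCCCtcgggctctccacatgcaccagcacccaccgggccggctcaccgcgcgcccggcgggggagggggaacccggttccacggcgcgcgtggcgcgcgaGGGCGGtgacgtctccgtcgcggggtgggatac

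The motifs searched on both strands were AP-1 (TGANTCA), CRE (TGACGTCA), the NRF2 antioxidant response element (TGACNNNGC), NF-Y (CCAAT), SP/KLF (GGGCGG), ETS (CCGGAAG), NRF1, the TATA box (TATAAA), SOX (ACAATG), an E-box (CAGCTG) and NF-kB. NRF1 and NF-kB are given by name. An AP-1 and an antioxidant response element match can overlap. The Acod1 stretch held 1 TATA box, found in 11.7% of the 20084 promoters of protein-coding genes in the table, and 1 NF-Y match, found in 35.3%. Its GC content was 44.4%. The Cntn6 stretch held 2 E-box matches, a motif found in 12.2% of promoters, and the Mobp stretch held no match. Ring1 had a GC content of 73.6%, with 2 SP/KLF matches, found in 43.4% of promoters, and 1 E-box. Promoter entries existed for 122 of the 162 genes that lost a gene-end peak (75.3%), so a comparison of motif or GC content over those genes is void. A match is a description of these letters and not a bound site.

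The citraconate lists were shorter and their peaks weaker than the DMSO lists at a like background. On chromosomes 1 to 19 the DMSO lists held 51099 and 58475 peaks, and the citraconate lists held 30735 and 28580. The group means were 54787 ± 5216 and 29657.5 ± 1524 peaks (SD, n = 2), a ratio of 0.541. The groups did not overlap, and a two-sided exact permutation test gave p = 0.333, the smallest that 2 against 2 libraries allow. The difference was larger among strong peaks. A fold of 20 or more over background, the authors' value for a peak's summit, was reached by 12728 and 15530 peaks with DMSO and by 2892 and 3569 with citraconate. The median fold was 11.7 and 11.6 with DMSO, and 7.80 and 8.88 with citraconate.

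The files hold no read totals. The background pileup implied by the fold steps, which grows with sequencing depth if fragments were extended alike, was 0.793 and 1.16 in the DMSO libraries and 0.924 and 0.801 in the citraconate libraries. These ranges overlap (exact permutation p = 1), and DMSO replicate 1 and citraconate replicate 2 differ by 51099 against 28580 peaks at almost the same background. Peaks on chromosome Y made up 0.140% and 0.220% of the DMSO lists and 0.850% and 0.686% of the citraconate lists. The part of library quality or of cell source in the results below was not tested.

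**Figure D1:**
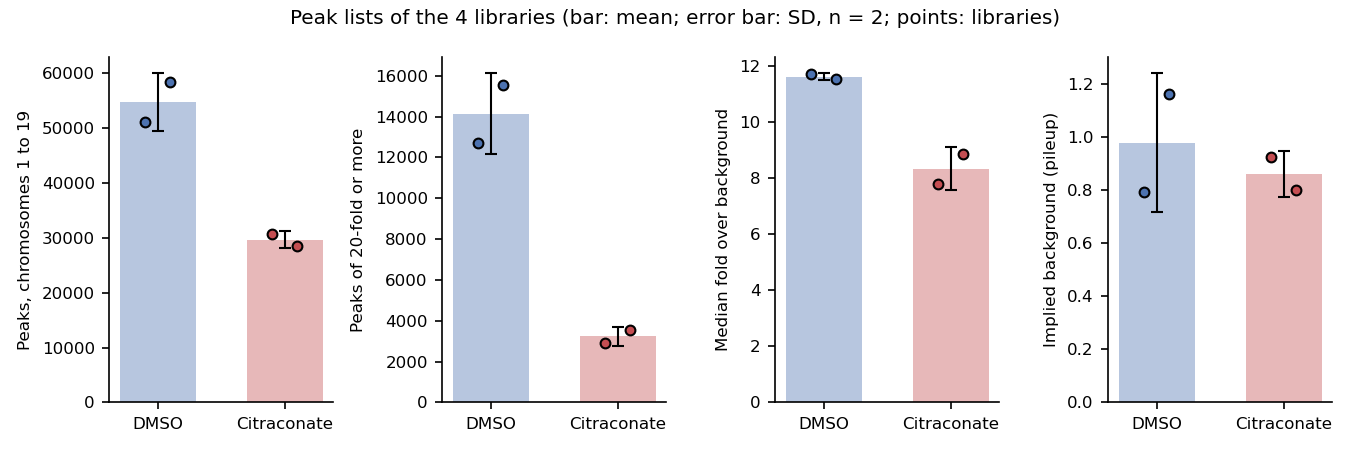
Peak number, peaks of 20-fold or more, median fold and implied background pileup (y axes) in the 2 DMSO and 2 citraconate libraries. Points are libraries, bars means and error bars SD (n = 2). The first 3 measures separate the groups, and the background ranges overlap.

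Because a longer list finds more regions, each list was shortened to its best 28580 peaks by q-value, the length of the shortest, and the 4 lists were merged into 43693 regions. Of these, 15418 had a peak in all 4 libraries. A region was called DMSO-only when both DMSO libraries and neither citraconate library had a peak there, and citraconate-only in the reverse case. There were 7333 DMSO-only regions (16.8% of all) and 3920 citraconate-only regions (8.97%). The cut fell unevenly on the lists. It took nothing from citraconate replicate 2, little from replicate 1 (30735 peaks) and much from the DMSO lists (51099 and 58475 peaks). The DMSO lists so shortened still end at a fold of 10.6 in replicate 1 and a higher one in replicate 2, and the citraconate lists at 4.68 and 4.44. Of the DMSO-only regions, 7155 (97.6%) had no peak in either citraconate list at its full deposited length. Of the citraconate-only regions, 809 (20.6%) had none in either full DMSO list, and the other 3111 were regions where DMSO peaks existed with a lower rank. The share of 97.6% was nearly fixed by the cut, so it cannot be compared with the 20.6%.

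With the lists as deposited, 20148 regions were DMSO-only (29.6% of 67998) and 881 citraconate-only (1.30%). With lists matched on covered bases, which keeps fewer of the wide DMSO peaks, the order turned, to 2456 DMSO-only and 7282 citraconate-only regions. The balance between losses and gains thus depends on how the lists are matched. Absence from a full list does not depend on matching, but the full citraconate lists were shorter and weaker. The part of list length and strength in such absence was not tested.

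Position in the genome separated the calls. Only 212 of the DMSO-only regions (2.89%) were gene-end regions, within 1 kb of where a protein-coding gene starts or stops, against 24.5% of all regions and 48.3% of those in all 4 libraries. Of the other DMSO-only regions, 3262 (44.5% of the 7333) lay inside genes and 3859 (52.6%) between genes. Of the citraconate-only regions, 950 (24.2%) were at gene ends. At full length the share at gene ends was 3.99% for DMSO-only and 9.76% for citraconate-only regions, against 17.7% of all regions. DMSO-only regions had a median width of 711 bp, citraconate-only regions of 488 bp and regions in all 4 libraries of 1213 bp.

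**Figure D2:**
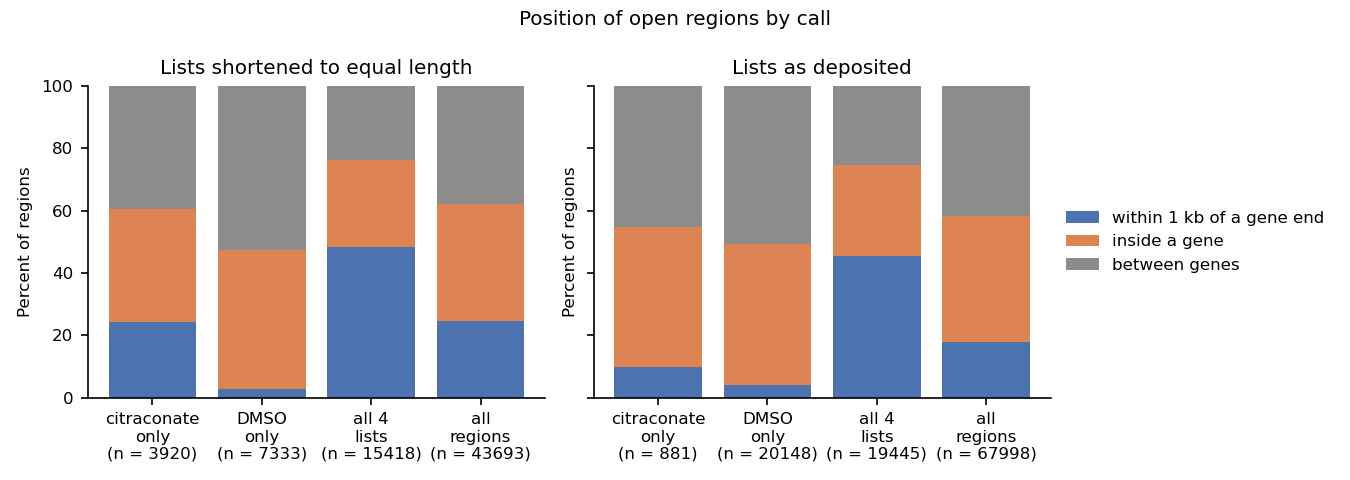
Percent of regions (y axis) within 1 kb of a gene end, inside a gene or between genes, by call (x axis, with the number of regions), for lists shortened to equal length (left) and as deposited (right). DMSO-only regions hold 2.89% and 3.99% gene ends, below the 24.5% and 17.7% of all regions.

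The same contrast appeared in rank among the 15418 regions shared by all 4 libraries. Both citraconate percentiles exceeded both DMSO percentiles at 7162 of them (46.5%), and both were lower at 3845 (24.9%). At gene ends 61.4% ranked higher and 10.9% lower with citraconate. Between genes 30.6% ranked higher and 41.3% lower. The median percentile of gene-end regions was 71.5 and 70.1 in the DMSO libraries and 82.7 and 83.1 in the citraconate libraries. Ranks are relative within a list. With full lists the balance turned to 3453 higher and 9205 lower.

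The DMSO-only regions with the best ranks were wide distal peaks. Of the 10 named by the rule, all lay outside gene ends, and their widths ran from 1124 to 2529 bp. The strongest, chr12:89441693-89443495 inside Nrxn3, which encodes a presynaptic adhesion receptor, had a fold of 93.1 and 102 in DMSO replicates 1 and 2. A region of Nrxn3 at chr12:90131948-90133520 reached 59.1 and 74.0. No peak overlapped either of them in the citraconate lists. Of the 10 regions, 8 were in both ZR libraries of the first series, 4 of these in no EV library, and 2 were in both EV libraries and no ZR library.

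The citraconate-only regions absent from the full DMSO lists and best in rank were narrow, from 152 to 615 bp with a median of 167.5 bp over 10 regions. The first, chr14:86198991-86199142, had a fold of 97.2 in each citraconate library, lay 456214 bp from the nearest end of a protein-coding gene, Diaph3, and had no peak in any EV, ZR, ZR_DMSO or ZR_dmCitra library. A region of 162 bp near Cd209a, a C-type lectin gene, had a fold of 50.4 and 54.4, and one of 173 bp inside Litaf had 59.8 and 51.1. Of the 10, 8 had a peak in both ZR_DMSO libraries and 4 in both ZR libraries. Such narrow peaks of high fold differ in shape from the DMSO-only ones, and reads were not analysed here.

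Long genes held the most DMSO-only regions. These were 12 of the 21 regions inside Lsamp (limbic system adhesion protein) and 11 of 20 inside Celf2 (an RNA-binding splicing regulator). Sugct held 11 of 16, Arhgap24 10 of 21 and Macrod2 10 of 28, and further genes also reached 10. Of all 16497 regions inside genes and away from gene ends, 3262 were DMSO-only and 1418 citraconate-only. Celf2 and Macrod2 each also held 1 citraconate-only region. Gene-end peaks were in all 4 libraries for Lsamp, Sugct and Macrod2. Sugct, for instance, kept a gene-end peak with a fold of 82.5 and 77.2 in the DMSO and of 34.8 and 35.0 in the citraconate libraries. The genes with the largest numbers of citraconate-only regions inside them were Gm21119 (20 of 29), Sfi1 (14 of 40), 4930467E23Rik (8 of 10) and Cd244a (7 of 16). Akap6 followed with 6 of 19, level in number with Gse1 and Tmem267, and held 5 DMSO-only regions as well. Sfi1 and the Gm21119 neighbourhood belong to repeated parts of the mouse genome, where reads may be shared among copies, so these counts are uncertain. The stretch of chromosome 8, from 19 to 22 Mb, held 98 citraconate-only regions of 168. Chromosome 8 as a whole had 14.7%, and 11.4% outside that stretch, against 8.97% over all chromosomes.

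At gene ends the calls were made for the 11009 protein-coding genes with a peak within 1 kb of an end in any of the 4 lists of equal length. A peak in both DMSO and neither citraconate library was found for 162 genes (1.47%), and the reverse for 826 (7.50%). Peaks were in all 4 libraries for 8405 (76.3%), the share against which such counts for the gene lists below are to be read. Of the 162 DMSO-only genes, 156 had no gene-end peak in the full citraconate lists, which the cut had hardly shortened. Of the 826 citraconate-only genes, 783 did have one in a full DMSO list, and 43 did not. With the lists as deposited, 527 genes (4.49% of 11747) were DMSO-only and 45 (0.383%) citraconate-only. The gene lists below were counted at equal length. They hold 452 genes on chromosomes 1 to 19, of which 277 had a gene-end peak, 6 were DMSO-only (2.17%) and 16 citraconate-only (5.78%), shares to be read against 1.47% and 7.50% over all genes. All 6 DMSO-only members were also DMSO-only in the full lists, a result nearly fixed by the cut. Of the 16 citraconate-only members, 14 had peaks in all 4 full lists.

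Acod1 (chr14:103047012-103056573) was the list member with the best-ranked DMSO-only peak. Its gene-end peak, which lies over the start, had a fold of 40.2 in DMSO replicate 1 and 47.2 in replicate 2, ranks 2736 and 2627 in those lists. Neither citraconate list held a gene-end peak at any fold, down to their lowest values of 4.16 and 4.44. The call was the same under 11 of 11 alternatives tried. Those that changed list length or left out a library could hardly move it. The peak ranked high in both DMSO lists and was missing from both full citraconate lists. In the first series the peak had a fold of 15.4 and 10.8 in the ZR libraries and 13.0 and 13.8 in the ZR_dmCitra libraries, and EV replicate 2 alone of the EV libraries had one, of 5.82. The loss of the Acod1 start peak in the citraconate libraries of the second series was thus not seen in ZR_dmCitra, which carries the same 10 mM citraconate label.

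Within 15 kb of the Acod1 start, each DMSO list held 5 peaks and each citraconate list 1. The one that remained lay about 13 to 14 kb upstream, with a fold of 36.2 and 43.9 in the DMSO libraries and 11.4 and 11.1 in the citraconate libraries. The peaks at about 4 kb upstream (12.8 and 25.4), at 2 to 3 kb upstream (13.9 in each DMSO library) and within the gene (11.7 and 14.3) were listed in the DMSO libraries alone of the 4. The ZR lists held 4 and 5 peaks here, the ZR_dmCitra lists 6 and 5 and the EV lists 1 and 3.

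**Figure D3:**
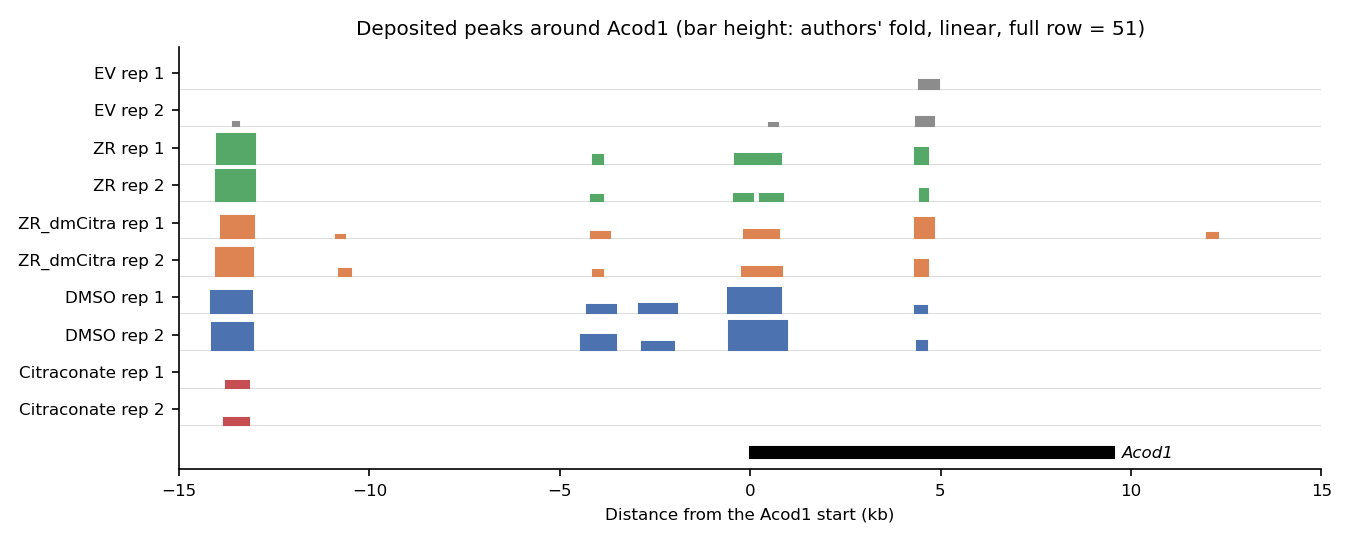
Deposited peaks around Acod1 by distance from its start (x axis, kb) in 10 libraries (rows). Bar height is the authors' fold on a linear scale and the black bar is the gene. The DMSO rows hold 5 peaks each, with the start peak at 40.2 and 47.2, and the citraconate rows hold only the upstream peak, at 11.4 and 11.1.

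The itaconate and citric acid cycle list had 25 members with a gene-end peak. Of these, 23 had it in all 4 libraries, against 76.3% of all genes with a peak. Among them were Cs (citrate synthase), Idh1, the Sdha to Sdhd subunits of succinate dehydrogenase, and Slc13a3, a carrier of dicarboxylates. Idh3b was citraconate-only at equal length, and its full-list folds were 10.0 and 11.1 with DMSO and 5.72 and 6.11 with citraconate. That call is one of rank near the end of the shortened lists, and it ended when the lists were used as deposited.

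The antioxidant regulator Nfe2l2, which encodes NRF2, had a gene-end peak of 48.0- and 45.8-fold with DMSO and 37.4- and 31.1-fold with citraconate. Its targets Nqo1 (36.2 and 48.5 against 28.6 and 20.5) and Hmox1 (27.9 and 30.5 against 18.2 and 18.9) also had peaks in all 4 libraries. In fold the DMSO values of these 3 genes were the higher ones, as was the median fold of the DMSO lists. Percentiles within lists of equal length were higher with citraconate at Nfe2l2 (94.3 and 89.8 with DMSO against 98.7 and 96.5). The same held at Hmox1 (75.7 and 72.9 against 86.9 and 85.1), and those of Nqo1 overlapped (86.7 and 91.5 against 96.6 and 87.6). Of gene-end regions in all 4 libraries, 61.4% ranked higher with citraconate. Of the 23 NRF2 list members with a peak, 19 had it in all 4 libraries, 2 were citraconate-only and none was DMSO-only. Gsta1, a glutathione S-transferase, was listed at a fold of 9.88 and 11.7 with citraconate, at 4.62 in DMSO replicate 2 and not in replicate 1. Keap1, the sensor that holds NRF2 in check, had 8.32 and 9.99 with citraconate against 10.0 and 10.6 with DMSO, so its call rests on rank alone. Gsta3, in no list, was 1 of the 43 genes absent from the full DMSO lists, with 10.9 and 10.5 in the citraconate libraries. Gsta genes have close paralogs, and their peaks may share reads with the copies.

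Around the NRF2 list, 124 regions had a list member as the nearest gene within 100 kb, of which 20 were citraconate-only (16.1%) and 9 DMSO-only (7.26%). Over all 36523 regions with a gene that near, the shares were 9.56% and 13.4%. Srxn1, the sulfiredoxin gene, accounted for 6 of the 20, out of 8 regions assigned to it. Abcc1, which exports glutathione conjugates, had 2 of each kind among 8. The lean was not particular to this list. Around Polycomb genes 13.5% were citraconate-only and 9.62% DMSO-only. The shares were 12.3% and 6.17% around AP-1 and stress genes, and 10.3% and 2.56% around housekeeping genes. Other lists, such as neural adhesion below, leaned the other way. These counts by nearest gene were added after the gene-end counts were seen, and no test was made of them.

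Among NF-kB genes, 14 of 20 with a peak had it in all 4 libraries, against 76.3% of all genes with a peak. They included the inhibitor Nfkbia (29.0 and 28.7 against 19.8 and 22.8) and the subunit Nfkb1 (22.9 and 23.1 against 9.88 and 10.5). The citraconate folds of these genes were lower in both libraries. The percentile of the Nfkb1 peak within lists of equal length was 64.8 and 55.8 with DMSO and 60.3 and 60.5 with citraconate, so that its rank overlapped between the groups. That of the Nfkbia peak was higher in both citraconate libraries, at 89.7 and 90.9 against 78.3 and 70.0 with DMSO. Rela, part of which is in the fusion, had a peak in all 4 full lists (9.48 and 21.3 against 8.84 and 13.9). These folds are not of one peak. The best peaks of DMSO replicate 2 and citraconate replicate 1 lay at one end of the gene, and the others at the opposite end. Il6, an inflammatory cytokine, was citraconate-only by rank, with folds of 7.28 and 6.11 against 10.0 and 11.1. Of 11 fusion-associated genes with a peak, 7 had it in all 4 libraries, including Ccnd1 (cyclin D1; 17.3 and 30.5 against 9.88 and 10.5), and Arl4d, a small GTPase gene, was citraconate-only by rank (8.84 and 8.33 against 8.37 and 9.25). L1cam, a marker of fusion tumours, lies on chromosome X and is outside the comparison. The 21 interferon response genes with a peak gave 15 in all 4 libraries, against the same 76.3%, and no call in either direction.

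Polycomb genes had 15 of 19 peaks in all 4 libraries, against 76.3% of all genes with a peak. Ezh2, the methyltransferase that writes H3K27me3, had a peak of 36.2 and 46.2 with DMSO and 23.4 and 23.9 with citraconate, at percentiles, within lists of equal length, of 86.8 and 90.1 against 93.2 and 91.8. Ring1, Phf1 and Ezh1 were citraconate-only at equal length. Ring1 had the widest difference of the 3, with 10.4 and 12.2 under citraconate and 4.46 and 9.71 under DMSO. Phf1 had lower folds with citraconate (7.80 and 6.11 against 7.81 and 7.86), and the folds of Ezh1 overlapped (6.24 and 9.44 against 7.81 and 8.32).

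The cell type lists bear on which cells these libraries hold. All 19 housekeeping genes with a peak had it in all 4 libraries. Of the 12 neural stem genes with a peak, 9 had it in all 4, against 76.3% of all genes with a peak. Among the 9 were Sox9, Vim, Egfr and Id1, and 10 further genes of the list had no peak. Sox2, a defining neural stem factor, had no gene-end peak in any of the 4 full lists. It had one of 36.6 and 35.4 in the EV libraries and none in ZR or ZR_dmCitra. Nes, the neural stem filament nestin, was listed only in citraconate replicate 1, at 5.20, and in both EV libraries, at 7.58 and 7.41. The DMSO libraries thus lack the Sox2 peak that cells with the same empty vector label show in the first series.

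Markers of other cells were mostly without peaks: 10 of 15 neuron, 8 of 12 astrocyte, 7 of 11 oligodendrocyte, 12 of 18 ependymal cilia, 8 of 12 microglia and 11 of 14 mesenchymal and vascular genes had none at equal length. Many genes of any kind lack one: 11009 of all 20661 protein-coding genes had a gene-end peak, and 12 of 22 neural stem genes did. Col1a1 and Cdh5 had peaks in all 4 libraries, as did the microglial Tmem119. Spi1, P2ry12 and Cd68 of the microglia list had a peak in some of the 4 lists of equal length. The other 8 members, among them Ptprc, Csf1r and Aif1, had none. In full lists, 4 members of that list had a peak in each DMSO library and in citraconate replicate 2, and 2 in citraconate replicate 1. The DMSO-only members were Dcn (decorin, a matrix proteoglycan; 34.6 and 38.4), Mobp (13.9 and 19.9) and Tmem212 of the cilia list (13.9 and 15.3), each absent from both full citraconate lists. Of 11 alternatives, Dcn lost its call under 1 (gene starts only), and Mobp and Tmem212 each under 2 (the 10000 best peaks of each list, and equal covered bases). Of the regions nearest to mesenchymal and vascular genes, 15 of 47 (31.9%) were DMSO-only and 1 citraconate-only (2.13%), against 13.4% and 9.56% of all, with 6 of the 15 assigned to Dcn.

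Of 15 neural adhesion genes with a gene-end peak, 9 had it in all 4 libraries, against 76.3% of all genes with a peak, among them Nrxn3, Lsamp and Ncam1. Cntn6 was DMSO-only, with a fold of 24.0 and 32.4 and no peak in either full citraconate list. The call was the same under 11 of 11 alternatives. As for Acod1, changes of list length or left-out libraries could hardly move it. In the first series Cntn6 had a peak in both ZR libraries (8.52 and 9.14) and in none of the EV or ZR_dmCitra libraries. Astn1, an astrotactin of migrating neurons, was citraconate-only by rank (5.20 and 8.33 against 6.13 and 8.32). Of 93 regions nearest to a list member, 23 were DMSO-only (24.7%) and 4 citraconate-only (4.30%), against 13.4% and 9.56% of all.

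Among growth control genes, Ccnd2 (cyclin D2) was the 1 DMSO-only gene, at 18.4 and 17.1, and this call ended in 5 of 11 alternatives. The other 16 cell cycle genes with a peak had it in all 4 libraries, among them Cdk4, Cdk6, Myc, Mycn and Mki67. Of 18 AP-1 and stress genes with a peak 17 were in all 4 libraries, and of 17 growth factor signalling genes 14 were. Around the growth factor genes 21 of 107 regions were DMSO-only (19.6%) and 9 citraconate-only (8.41%), against 13.4% and 9.56% of all, with 6 of the 21 assigned to Fgfr2 and 3 to Egfr. Of 16 Notch pathway genes with a peak, 13 had it in all 4 libraries, and Dll1, a Notch ligand, was citraconate-only by rank (6.76 and 7.77 against 9.48 and 10.6). The best Dll1 peaks of the citraconate libraries did not overlap each other.

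Developmental genes that Polycomb often holds silent were largely without peaks. Among Hox genes 34 of 39 had none, Hoxa4 had one in all 4 libraries and none was called in either direction. Of 21 developmental transcription factors with a peak 11 had it in all 4 libraries. Lhx2 (8.32 and 8.33 against 7.25 and 9.25), Foxf2 (5.72 and 7.77 against 8.92 and 7.40) and Zeb1 (5.20 and 6.11 against 6.13 and 8.78) were citraconate-only by rank, as were the neuronal Tubb3 and Neurog2 and the myelin enzyme gene Cnp. In all 3 of the folds printed the groups overlap or are lower with citraconate, and all 3 genes had DMSO peaks in the full lists. The best peaks of the citraconate libraries did not overlap each other at Zeb1, and at Tubb3 they lay at opposite ends of the gene. Those calls are not of the same peak in both replicates.

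**Figure D4:**
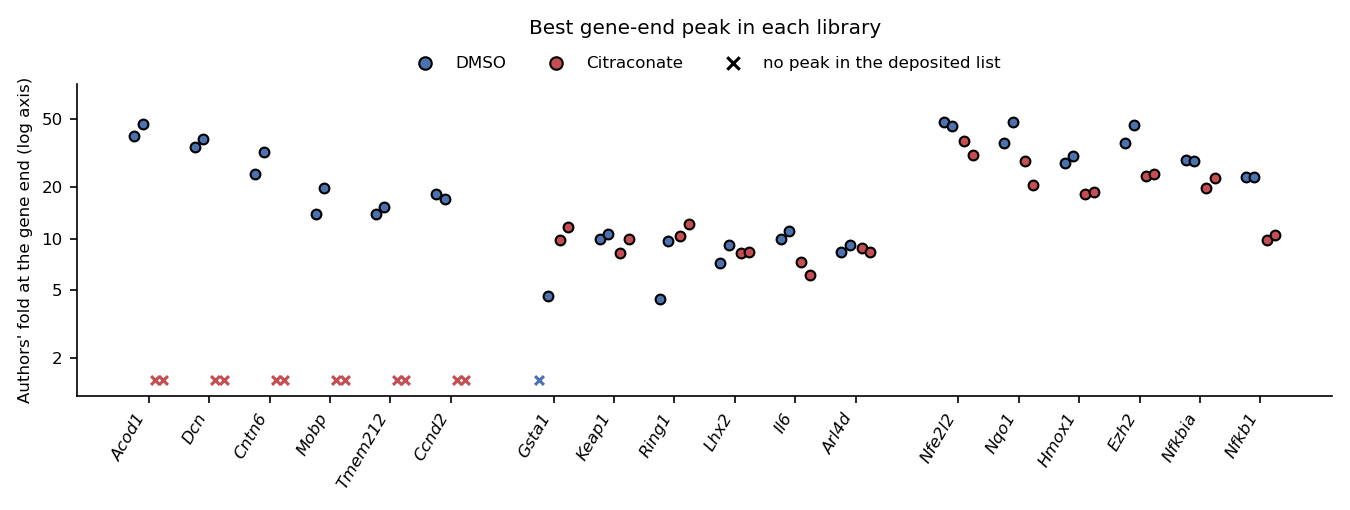
Authors' fold of the best gene-end peak (y axis, log scale) for 18 list genes, with DMSO libraries in blue and citraconate libraries in red, and crosses for no peak in the full list. The left 6 genes have peaks of 13.9- to 47.2-fold in the DMSO libraries and crosses in both citraconate libraries. The middle 6 were citraconate-only at equal length, and 5 of them have DMSO peaks in both full lists.

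Outside the lists, the best-ranked gene ends absent from the full citraconate lists were Meig1 (a spermatid manchette gene; 58.0 and 59.6), the odorant receptor Olfr52 (50.2 and 70.7), Acod1, Gm11677 (39.0 and 58.2), Fgfbp1 (an FGF-binding protein; 39.0 and 52.2) and Dnajc5 (43.5 and 42.5). Dcn, Prlhr, Rbm12b1 and Clip2 completed the 10. Several were kept by the citraconate libraries of the first series: Meig1 at 34.8 and 35.5, Clip2 at 41.0 and 35.0, and Fgfbp1 at 11.9 and 13.8. Gm11677, Dnajc5 and Rbm12b1 had no peak there. In the ZR libraries, Rbm12b1 had none either, Gm11677 was listed only in replicate 2 (8.61) and Dnajc5 only in replicate 1 (56.5). Meig1, Clip2 and Fgfbp1 had peaks in both ZR libraries. Of all 162 DMSO-only genes, 49 (30.2%) had a gene-end peak in both ZR_dmCitra libraries, against 90.7% of all genes with a peak. The share was also low without citraconate, at 71 (43.8%) in both ZR libraries against 90.9%. Of the 162, 13 had one in both ZR and no ZR_dmCitra library, as did 82 of all 11009. In both ZR and no EV library 40 (24.7%) had one, against 2.98%.

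The best-ranked citraconate-only gene ends absent from the full DMSO lists were weaker. Cfap97, a ciliary protein gene, had 23.4 and 33.3, and no other of the 10 exceeded 13.5. They included Nudcd3 (13.5 and 13.3), Trmt11, a tRNA methyltransferase subunit (9.36 and 10.5), Aifm3 (9.36 and 13.3), and Cyp1a1, the aryl hydrocarbon receptor target that oxidises xenobiotics (7.28 and 8.88). Eral1, Tnfrsf23, Fbxo40 and Cacnb4 were the others beside Gsta3. Cfap97 and Trmt11 had strong peaks in both ZR and both ZR_dmCitra libraries, of 55.4, 54.3, 42.6 and 39.3 for Cfap97 and of 41.5, 39.8, 32.7 and 35.5 for Trmt11. In the EV libraries Trmt11 had 34.1 and 43.4, and Cfap97 had 36.5 in replicate 2 and no peak in replicate 1.

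Among genes with peaks in all 4 libraries, the percentile within lists of equal length was lower with citraconate by most at Serpina3n, a protease inhibitor gene known from reactive astrocytes, at 97.5 and 98.1 with DMSO and 27.8 and 23.0 with citraconate. Its fold was 59.7 and 72.6 against 6.24 and 6.11, and the best peaks lay at different ends of the gene. At Atf6, a sensor of endoplasmic reticulum stress, it was 96.4 and 95.1 against 29.3 and 47.9, with a fold of 54.1 and 56.9 against 6.24 and 8.33. Lrriq1 and one peak shared by the neighbours Bmerb1 and Ifitm7 followed. It was higher with citraconate by most at Duxf3 and Gm4981, adjacent members of a repeated array, at Iah1 (8.09 and 8.65 with DMSO against 79.9 and 79.1), and at one peak shared by Sdf2 and Supt6 (3.11 and 1.56 against 71.3 and 84.8).

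The regions that separate fusion from empty vector cells were taken from ZR against EV in the first series, none of whose libraries is in the comparison. Lists of 34015 peaks gave 12974 fusion-gained, 11424 fusion-lost and 14219 shared regions. At the equal length of the second series, 59.1% and 60.2% of fusion-gained regions had a peak in the DMSO libraries and 45.4% and 44.4% in the citraconate libraries. The difference was −14.8 ± 1.07 percentage points, without overlap (exact permutation p = 0.333, the smallest possible). The spread given is the root of the summed squares of the 2 group SDs (n = 2 in each group). Fusion-lost regions had peaks at 8.09% and 8.47% with DMSO and 7.83% in each citraconate library. The DMSO libraries, labelled empty vector, therefore carried fusion-gained regions far more often than fusion-lost ones, which goes against that label.

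Similarity between lists pointed the same way. With 28580 peaks a list, the mean Jaccard index over bases of the DMSO libraries was 0.508 with ZR and 0.326 with EV. That of the citraconate libraries was 0.499 with ZR, 0.386 with EV and 0.514 with ZR_dmCitra. Replicates reached 0.701 for DMSO and 0.596 for citraconate, and the groups compared 0.440 with each other.

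At equal length the difference at fusion-gained regions was −15.4 percentage points away from gene ends, and at the 576 fusion-gained regions at gene ends the means were 56.1% in both groups. With full lists it was −37.7 points away from gene ends and −27.4 at gene ends. As deposited, the share was 80.2% and 85.6% with DMSO and 46.9% and 44.4% with citraconate. With equal covered bases the difference turned to +7.58 points. Shared regions had a peak in 84.6% and 84.8% of cases with DMSO and 88.0% and 88.3% with citraconate, and away from gene ends in 76.6% and 77.6% against 75.4% and 75.6%. Fusion-lost regions at gene ends, 973 in all, had peaks in 10.3% and 10.5% with DMSO and 29.3% and 29.5% with citraconate. With full lists that order turned, to 41.4% and 47.2% against 32.1% and 29.5%. Of the 9937 regions of the comparison that overlap a fusion-gained region, 2276 were DMSO-only (22.9%), against 16.8% of all regions, and 747 citraconate-only (7.52%).

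**Figure D5:**
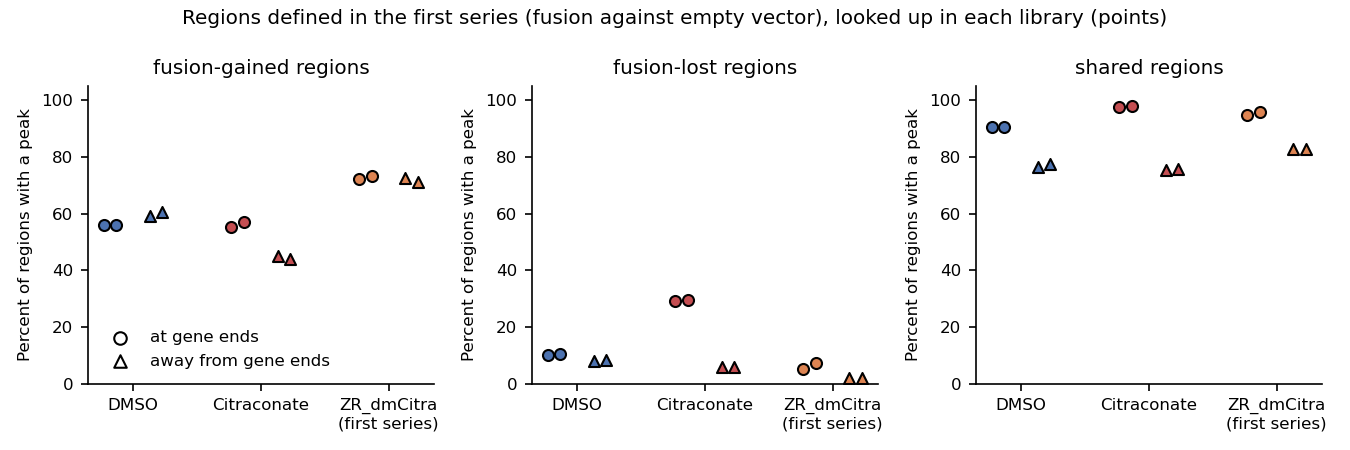
Percent of fusion-gained, fusion-lost and shared regions of the first series (panels) with a peak in each library (points; y axis), at gene ends (circles) and away from them (triangles), with lists of equal length. Away from gene ends, fusion-gained regions sit at 59.2% and 60.4% with DMSO and at 45.0% and 43.8% with citraconate, and shared regions differ by −1.62 points.

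The first series holds its own citraconate libraries, ZR_dmCitra, which share no library with the comparison. Regions lost there against ZR numbered 3177, and 809 of them (25.5%) overlapped a DMSO-only region of the second series, which overlapped 8.65% of all 59446 first-series regions. Away from gene ends the share was 26.1%, against 10.4% of all such regions. From the other side, 803 of the 7333 DMSO-only regions (11.0%) overlapped them, against 3.76% of all second-series regions. Regions gained there overlapped a DMSO-only region in 3.55% of cases and a citraconate-only region in 8.80%, against 5.94% of all for the latter. Against ZR_DMSO, whose lists are the shortest at 11806 and 20051 peaks, lost regions overlapped DMSO-only regions in 13.3% of cases, against 6.12% of all, and citraconate-only regions in 25.7%, against 5.94%. The choice of first-series control thus changed which calls overlapped.

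Of the 7155 DMSO-only regions absent from the full citraconate lists, 50.2% were in both ZR libraries, 35.2% in both ZR_dmCitra libraries, and 25.4% in none of the 6 EV, ZR and ZR_dmCitra libraries. Of the 809 citraconate-only regions absent from the full DMSO lists, 30.5% were in both ZR and 54.8% in both ZR_dmCitra libraries, and 131 (16.2%) were in none of the 6.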

How the data were processed

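ATAC-seq peak lists of 4 libraries were compared, and 8 others served as reference lists (2 GSK343 libraries were not used). Per the submitters' processing notes, BWA, SAMtools and Picard were used with mm10; peak names in the deposited files point to MACS2, run per library. Versions, settings and filters of these steps: not given in the sources used here. The deposited columns are the authors' fold, −log10 p and −log10 q, and an integer score, which was not used. The fold is a ratio of summit pileup to background, with the same constant added to both. Positions are the authors' own, deposited in mm10.

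Peaks on chromosomes 1 to 19 were ordered by −log10 q, kept to 28580 per list and merged where they touch or overlap; 1 bp of overlap counts as presence. Gene ends (1 kb) came from RefSeq GRCm38.p6, the same assembly as mm10, without strand. All fold values are whole multiples of a step in each list (within 0.02 of a whole number), from which the background was derived; a Poisson tail computed from it equals the deposited −log10 p to within 0.01. Lists hold no read counts, so no count model was used: regions and genes are counted without a test, and library values have a two-sided exact permutation test. Named genes are up to 4 members called each way per list, the 10 best-ranked called regions and gene ends absent from the other group's full lists, the 5 genes with most called regions and with the largest percentile shifts, and 13 genes of interest. Members and lists were chosen with earlier results of these data known. Promoters matched 16456 of 20661 protein-coding genes (79.6%), and 1 of 464 list genes matched no entry. Alternatives changed list length, overlap, window and replicates. The calling code was run on simulated lists of like strength, as a check of the code only. Python 3.11.15, numpy 2.4.6, pandas 2.3.3, scipy 1.17.1 and matplotlib 3.10.9 were used. Some items are not reported here.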

Additional observations from a re-analysis of the deposited data

Results flagged for a closer look

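The share of fusion-gained regions with a peak was lower with citraconate by 14.8 percentage points in the second series (a difference of −14.8, from 59.1% and 60.2% to 45.4% and 44.4%), and higher by 46.1 points in ZR_dmCitra (72.4% and 71.1%) than in ZR_DMSO (17.6% and 33.7%). The ZR_DMSO lists hold 11806 and 20051 peaks and the others 28580 here, so this first-series difference compares lists of unlike length. Shared regions, too, had a peak in 45.3% and 63.3% of cases in ZR_DMSO and in 89.7% and 90.2% in ZR_dmCitra. The series moved in opposite directions in every library, and the difference between them was not tested. The same holds for peak number, with a ratio of citraconate to DMSO of 0.541 in the second series and 2.72 in the first. Chromosome Y, which no comparison used, held 0.768% of citraconate peaks on average, above the 0.140% and 0.220% of the DMSO lists. ZR_dmCitra had 0.429% and 0.389%, and ZR_DMSO 1.95% and 1.54%.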

How the results depend on the processing

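Counts of DMSO-only and citraconate-only regions and genes depend on how the lists are matched. At equal length they were 7333 and 3920 regions, and 162 and 826 genes. As deposited they were 20148 and 881 regions, and 527 and 45 genes. With −log10 q of at least 5 on full lists they were 20916 and 659 regions, and 604 and 39 genes. With the 10000 best peaks they were 2752 and 2247 regions, and 95 and 1653 genes. With equal covered bases they were 2456 and 7282 regions, and 60 and 2494 genes. When peaks had to cover 50% of a region, DMSO-only regions rose to 11110, and with gene starts only, DMSO-only genes fell to 65. Shared regions with higher and lower citraconate percentiles numbered 7162 and 3845 at equal length, and 3453 and 9205 as deposited.

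The difference at fusion-gained regions (−14.8) turned to +7.58 with equal covered bases, and that at fusion-lost regions (−0.46) to +4.04. That at shared regions (+3.46) turned to −8.59 as deposited, to −10.1 with −log10 q of at least 5, and to −1.62 away from gene ends, an alternative chosen after seeing the data. The cause was not tested.

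Leaving out 1 library asks for presence or absence in fewer lists, so counts rise by construction: citraconate-only regions ranged from 4669 to 9285 (8329 without citraconate replicate 1, 9285 without replicate 2), DMSO-only regions from 8725 to 9459, citraconate-only genes from 976 to 1151, DMSO-only genes from 221 to 251 (251 without citraconate replicate 2), and regions of higher and lower percentile from 8728 to 9392 and from 4763 to 6162 (5846 without citraconate replicate 1). The ratio of peak numbers ranged from 0.507 to 0.580, and the differences from −16.2 to −14.2 (fusion-gained), −0.83 to −0.26 (fusion-lost) and 1.63 to 3.59 (shared). The overlap of first-series losses was 13.3% against ZR_DMSO and 25.5% against ZR, and that of gains 9.39%, or 17.6% with all lists at 11806 peaks.

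Replicate numbers are shared between the groups but no label says that they mark a common culture. With the replicate number as a block, the ratio of 0.541 and the differences of −14.8, −0.46 and 3.46 are the same and the sign-flip p is 0.5, the smallest that 2 pairs allow. Precision is limited by 2 libraries a group and by unknown read depth.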
